A study of Oryza sativa with 6 samples.

Results

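Transcript levels of 4 cell wall genes of rice (Oryza sativa) are described here: EXPB3 (LOC4349349), a beta-expansin, BGLU3 (LOC4327593) and BGLU10 (LOC4336142), beta-glucosidases, and MAN1 (LOC4327860), an endo-beta-mannanase. All probe sets that the array annotation assigns to these genes were taken, 8 of the 57194 probe sets that are not controls, and 4 of 17905 annotated genes. EXPB3 and MAN1 have 1 probe set each, and BGLU3 and BGLU10 have 3 each. The genes were chosen by name, after the measured values of all groups had been seen: EXPB3, BGLU3 and BGLU10 were among the lower transcripts of RNAi against wild type in an earlier analysis of these arrays, and the reason for including MAN1 is not stated. The comparisons of RNAi with wild type and of overexpression with RNAi are therefore given for these genes as descriptions, with no test.

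RNA of untreated 4-leaf seedlings was measured on 6 Affymetrix rice arrays with 1 label. The 3 groups hold 2 biological replicates each: wild type (WT, cultivar Nipponbare), plants overexpressing OsUBA (OX), and plants carrying an RNA interference construct against OsUBA (RNAi), a method that degrades transcripts matching a double-stranded RNA. The promoters of the constructs, the number of independent lines and the cultivar of the transgenic plants are not given in the sources used here, and no group is labelled as carrying an empty construct. The annotation used here names no gene OsUBA, so the level of the manipulated gene was not checked. Values are log2 expression values as the authors deposited them, the spread of a group is the SD of its 2 arrays, and a log2 change carries the SE of the fit.

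Expansins loosen growing cell walls without cutting their polymers, by weakening the contacts between cellulose and the matrix polysaccharides around it; beta-expansins are especially numerous in grasses. Beta-glucosidases of glycoside hydrolase family GH1 release glucose from the ends of wall-derived oligosaccharides or from glucosides of hormones, defence compounds and lignin precursors, and the substrate differs between members. Endo-beta-mannanases cut the backbone of mannans, a minor matrix polysaccharide of grass walls.

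EXPB3, which acts on the wall without hydrolysing it, was read by the probe set Os.6786.1.S1_a_at. Its log2 value was 13.27 and 12.60 in WT, 13.73 and 13.18 in OX, and 10.76 and 9.39 in RNAi. Both RNAi arrays lay below all other arrays, by 1.84 or more, while the WT and OX arrays interleaved. The mean was 7.25-fold lower in RNAi than in WT (log2 change -2.86 ± 0.44) and 10.4-fold higher in OX than in RNAi. Without RNAi replicate 1 the difference between RNAi and WT was 11.6-fold, and without RNAi replicate 2 it was 4.51-fold; the difference between OX and RNAi was 16.7-fold and 6.45-fold in the same fits.

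BGLU3 was read by 3 probe sets, of which Os.51558.1.S1_at and Os.51558.1.S1_x_at derive from the same transcript record. The suffix _x_at marks probes that may also bind other transcripts. Os.51558.2.S1_at read 9.95 and 10.15 in WT, 11.51 and 10.64 in OX, and 6.85 and 7.02 in RNAi. On this probe set the 3 groups did not overlap, in the order RNAi, WT, OX. The mean was 8.66-fold lower in RNAi than in WT (log2 change -3.12 ± 0.30), and the 2 RNAi arrays differed by less than the 2 OX arrays did (SD 0.12 against 0.61).

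Os.51558.1.S1_x_at gave the same order, with 9.41 and 9.26 in WT, 10.80 and 10.08 in OX, and 7.10 and 7.05 in RNAi. The mean was 4.79-fold lower in RNAi than in WT, a smaller difference than on Os.51558.2.S1_at. Os.51558.1.S1_at read 7.25 and 6.67 in WT, 6.72 and 6.34 in OX, and 2.57 and 3.27 in RNAi. Both RNAi arrays lay under log2 5, the floor used for low values, so a bound from that floor applies: the mean in RNAi was lower than in WT by at least 3.89-fold. The OX arrays of this probe set did not stand above the WT arrays. The 3 probe sets of BGLU3 thus shared the low RNAi values but not the relation of OX to WT.

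The 3 probe sets of BGLU10 disagreed in direction. Os.10324.2.S1_at read 8.98 and 8.37 in WT, 9.94 and 9.10 in OX, and 6.22 and 4.79 in RNAi. The RNAi arrays lay at least 2.14 below every other array of this probe set, and the mean was 8.97-fold lower in RNAi than in WT (log2 change -3.17 ± 0.52). Without RNAi replicate 1 that difference was 14.8-fold, and without RNAi replicate 2 it was 5.45-fold.

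Os.15766.1.S1_at read 10.0 and 9.49 in WT, 11.18 and 10.21 in OX, and 6.78 and 2.01 in RNAi. The 2 RNAi arrays were both low but lay far apart (SD 3.38), the widest spread between replicates among the 8 probe sets. With the darker array set to the floor, the mean was at least 14.5-fold lower in RNAi than in WT. Without RNAi replicate 2 the difference was 7.81-fold, and without RNAi replicate 1 it was at least 26.9-fold.

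Os.10324.1.S1_at ran the other way, with 7.48 and 7.50 in WT, 6.83 and 6.85 in OX, and 8.60 and 7.95 in RNAi. Here the RNAi arrays were the highest and the OX arrays the lowest, and no groups overlapped. The mean was 1.72-fold higher in RNAi than in WT (log2 change 0.78 ± 0.33) and 2.71-fold lower in OX than in RNAi. Across the 6 arrays this probe set correlated at r = -0.811 with Os.10324.2.S1_at and at r = -0.667 with Os.15766.1.S1_at, while those 2 correlated at r = 0.971 with each other. Which transcripts each probe set binds was not tested.

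MAN1, the mannan-cutting enzyme, was read by Os.10006.1.S1_at. Its values were 8.64 and 6.64 in WT, 9.32 and 8.32 in OX, and 6.64 and 5.20 in RNAi. The WT replicates differed about as much as the groups did, and the upper RNAi array lay only 0.00473 below the lower WT array. The mean was 3.31-fold lower in RNAi than in WT (log2 change -1.73 ± 0.74). That difference was 1.65-fold without WT replicate 1, 6.62-fold without WT replicate 2, 5.45-fold without RNAi replicate 1 and 2.01-fold without RNAi replicate 2. OX and RNAi were apart on every array, at a 7.47-fold higher mean in OX (log2 change 2.90 ± 0.74). This was 12.3-fold without RNAi replicate 1 and 4.54-fold without RNAi replicate 2.

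**Figure D1:**
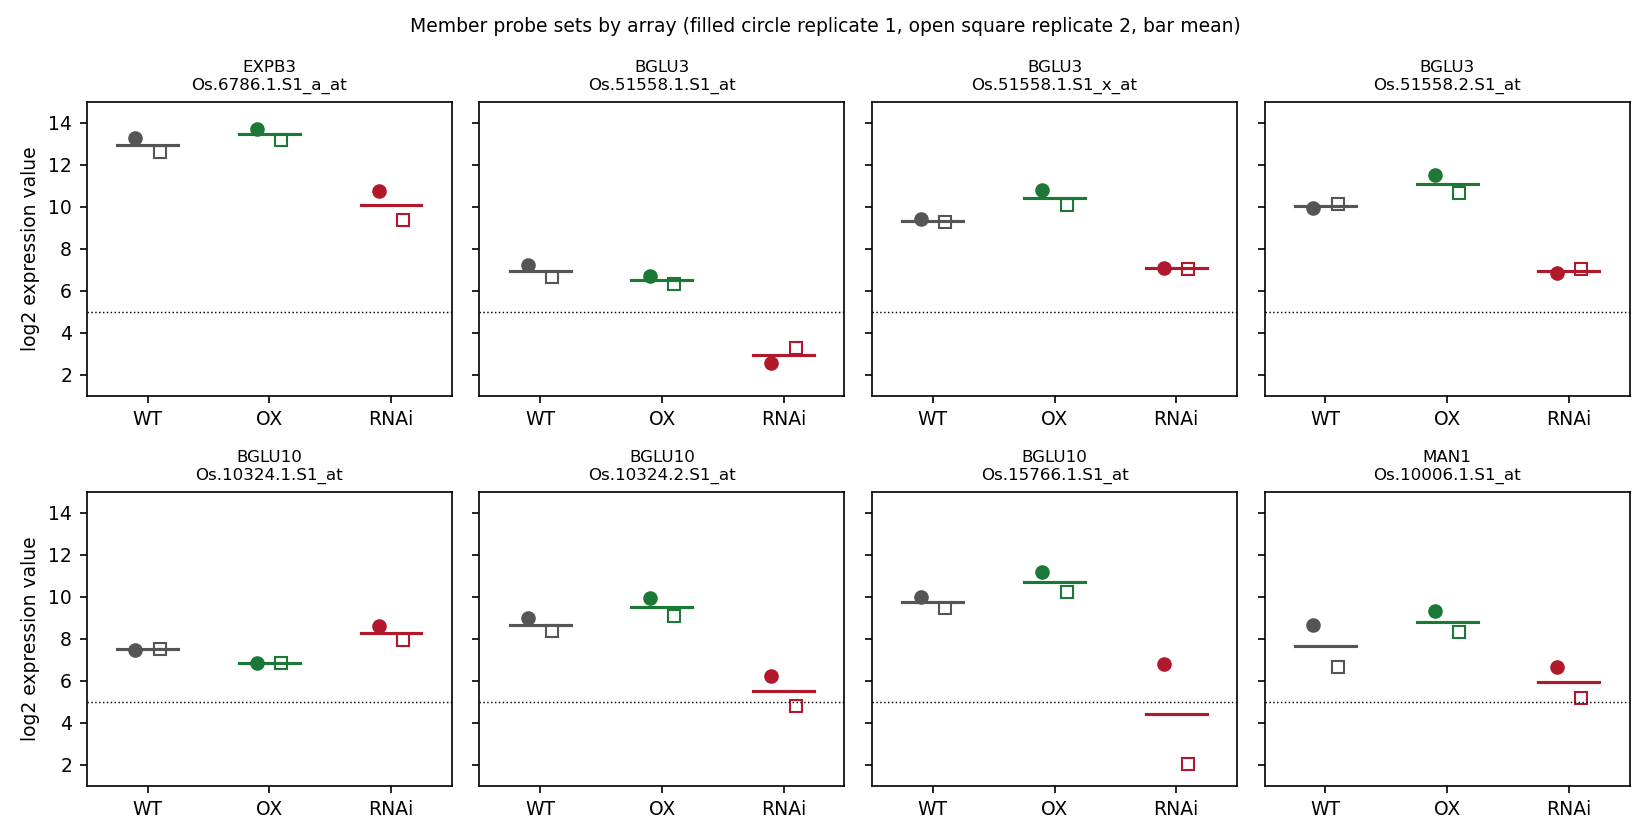
Log2 expression value (vertical axis) of the 8 probe sets in WT, OX and RNAi; filled circles are replicate 1, open squares replicate 2, horizontal bars group means, and the dotted line the floor of log2 5. RNAi is the lowest group in 7 panels and the highest in that of Os.10324.1.S1_at, where it stands at 8.60 and 7.95.

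In the order of levels, RNAi was the lowest group on 7 of 8 probe sets, and its arrays did not overlap with those of WT on any of the 8. Among all 40466 probe sets kept for testing, 20.9% had both RNAi arrays below both WT arrays and 19.9% had them above. Against OX, RNAi was lower without overlap on the same 7 probe sets and higher on Os.10324.1.S1_at; of all kept probe sets, 22.3% had OX higher than RNAi without overlap and 29.2% lower. These members were chosen for such differences, so nothing is read from their counts. All 8 passed the filter on low values, a log2 value of 5 or more on at least 2 of the 6 arrays.

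The comparison of OX with WT is not among the stated grounds for choosing EXPB3, BGLU3 and BGLU10, but it shares its WT arrays with RNAi against WT and its OX arrays with OX against RNAi. Its values had been seen when the genes were chosen, and for MAN1 it cannot be said that they played no part. In it 0 of the 8 probe sets passed (limma with a spread that follows brightness, two-sided, Benjamini-Hochberg adjusted p over the kept probe sets), against 0.356% of all kept probe sets. The corresponding shares were 0.773% for RNAi against WT and 4.26% for OX against RNAi; without the brightness trend they were 0.00%, 0.00247% and 0.0124%. Without overlap between the groups, 4 member probe sets were higher in OX than in WT and 1 was lower, beside 17.3% and 24.4% of all kept probe sets. At an unadjusted p under 0.05 there were 2, both of BGLU3, and limma without the brightness trend also gave 0 adjusted and 2 unadjusted. Of all kept probe sets, 9.54% had such an unadjusted p with the trend and 8.16% without. BGLU3 was 2.15-fold higher in OX by Os.51558.1.S1_x_at (log2 change 1.11 ± 0.28, limma adjusted p = 0.262) and 2.03-fold by Os.51558.2.S1_at (1.02 ± 0.30, adjusted p = 0.349), with both OX arrays above both WT arrays. By Os.51558.1.S1_at its log2 change was -0.43 ± 0.63 (adjusted p = 0.850), and the groups overlapped.

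BGLU10 was 1.80-fold and 1.93-fold higher in OX by Os.10324.2.S1_at and Os.15766.1.S1_at (limma adjusted p = 0.634 and 0.833) and 1.57-fold lower by Os.10324.1.S1_at (adjusted p = 0.578), in each case without overlap. The gaps between OX and WT on the first 2 were small, 0.123 and 0.209. EXPB3 had a log2 change of 0.52 ± 0.44 (adjusted p = 0.727) and MAN1 one of 1.18 ± 0.74 (adjusted p = 0.640), and both overlapped. The MAN1 mean was 4.52-fold higher in OX without WT replicate 1 and 1.13-fold higher without WT replicate 2. Over 14 alternative settings for each probe set, none of the adjusted p values fell below 0.158.

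**Figure D2:**
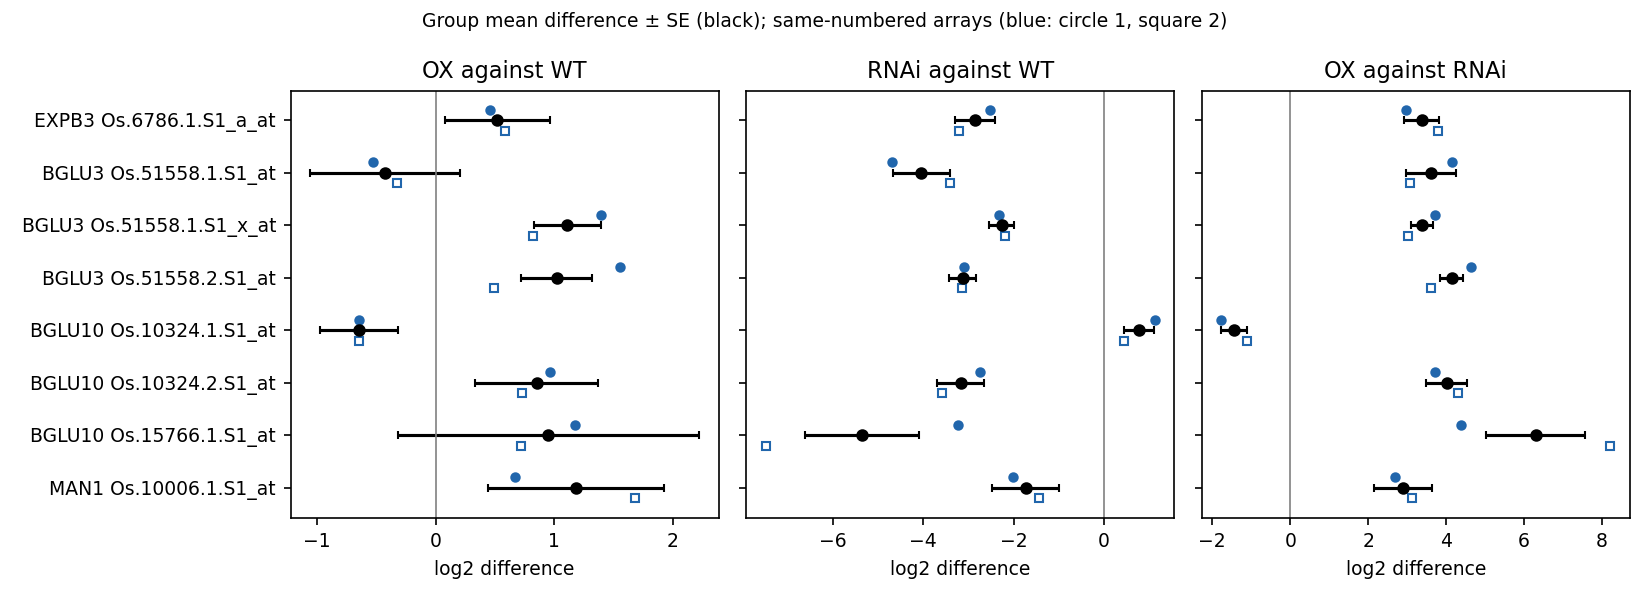
Log2 difference (horizontal axis) of each of the 8 probe sets in the 3 comparisons; black points are group mean differences with bars of 1 SE, blue circles and open squares the differences between arrays numbered 1 and between arrays numbered 2. OX against WT lies between -0.65 and 1.18, whereas RNAi against WT reaches -5.35 for Os.15766.1.S1_at, the probe set with the widest bar.

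Cells that form secondary walls are one source of wall transcripts in a seedling. Their 3 markers CESA4, CESA7 and CESA9, cellulose synthases of secondary walls, were lowest on the RNAi arrays, as were 7 of the 8 member probe sets. CESA4 read 11.77 and 11.72 in WT, 12.65 and 11.89 in OX, and 8.38 and 6.93 in RNAi. CESA7 read 8.90 and 5.33 in RNAi against 11.58 and 12.01 in WT, and CESA9 read 6.79 and 4.63 against 9.23 and 9.82. All 3 were lower in RNAi without overlap, and CESA4 passed (limma adjusted p = 0.0120; CESA7 0.0959, CESA9 0.0554). CESA4 did not pass without WT replicate 1 or without WT replicate 2.

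The log2 of the summed level of the 3 was 12.80 to 13.04 in WT, 13.18 to 13.94 in OX and 7.55 to 9.85 in RNAi. Markers of green leaf tissue, 3 of the 4 named genes being on the array, summed to 16.32 to 16.47 in WT, 16.21 to 16.34 in OX and 16.35 to 16.47 in RNAi, and 0 of them lay under the floor on all arrays. The 7 root uptake genes summed to 10.30 to 10.93, 10.37 to 10.83 and 10.11 to 10.45 in the same order, with Lsi2 under the floor on every array. Single genes moved both ways under this sum, though none of the 5 kept passed. In OX against WT, IRT1 was 2.29-fold higher without overlap. NAS2 and IRT2 were lower without overlap, by at least 3.04-fold and 1.45-fold. In RNAi against WT, 4 of the 5 had a negative log2 change and 1 a positive one, and IRT1 was 1.48-fold lower without overlap. Of the green leaf markers, the dim RBCS1 adds little to the sum. It was at least 1.40-fold lower in OX than in WT, without overlap, and did not pass. In RNA of seedlings, fewer cells of a type and less RNA per cell cannot be told apart. The part of secondary-wall-forming cells in the levels of EXPB3, BGLU3, BGLU10 and MAN1 was not tested.

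The related genes were described from lists of names, without the 4 members: 77 genes on the array in 8 lists, of which 66 had a kept probe set (the brightest on average stood for its gene). Lists of beta-galactosidases and of arabinofuranosidases with xylosidases matched no gene by name. Genes entered by name alone and their functions were not checked, so the lists may hold genes that do not act on walls. Against WT, 0 of the 66 passed in OX, 14 having an unadjusted p under 0.05 (limma without the brightness trend called 0, with 7 unadjusted). These are 21.2% and 10.6% of the 66, beside the 9.54% and 8.16% of all kept probe sets. The bases differ: each of the 66 is a gene read by its brightest probe set. The kept probe sets include dimmer ones of the same genes and ones without a listed gene. The unadjusted share over genes with 1 probe set each was not computed. In RNAi 2 fell and 0 rose. Between OX and RNAi, 9 were higher in OX, 2 lower and 55 did not pass. For 16691 genes with 1 probe set each, the shares were 0.605% higher and 0.00% lower in OX against WT, 0.246% higher and 0.971% lower in RNAi against WT, and 5.72% higher and 1.43% lower in OX against RNAi.

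Of the expansins other than EXPB3, 3 of the 20 kept genes (of 28 on the array) were higher in OX than in RNAi and 17 did not pass. EXPB11 read 8.08 and 8.28 in WT, 11.05 and 8.78 in OX, and 5.15 and 4.25 in RNAi. Counted from the floor, OX exceeded RNAi by at least 28.6-fold (limma adjusted p = 0.00691). The call held in all 6 fits that leave out 1 array, but the bound was 13.0-fold without OX replicate 1 and 62.9-fold without OX replicate 2. EXPA2, an alpha-expansin, was 9.69-fold higher in OX (adjusted p = 0.0140) and EXPB6 14.4-fold (adjusted p = 0.0441). The call of EXPA2 was lost without OX replicate 1 or RNAi replicate 2, and its fold was 5.52 without OX replicate 1 and 17.0 without OX replicate 2. The call of EXPB6 was lost without those 2 arrays or either WT replicate, after quantile normalisation, when filtering on the 6-array mean and with only the 4 arrays compared. Its fold ran from 6.52 without RNAi replicate 2 to 31.8 without RNAi replicate 1. The median log2 change of the 20 was 0.68 in OX against WT, -0.40 in RNAi against WT and 0.67 in OX against RNAi, beside -0.04, 0.02 and -0.07 over all 16691 genes.

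Of those 20 expansins none passed against WT. EXPB11 was at least 8.60-fold lower in RNAi, without overlap (limma adjusted p = 0.0880), and it passed in 2 of the 6 fits that leave out 1 array. In OX against WT, EXPA3 is named for its fitted change, but both OX arrays (2.33 and 4.36, against 6.06 and 5.10 in WT) lay under the floor. Counted from there it was at least 1.49-fold lower in OX (limma adjusted p = 0.570), less than the 3.33-fold by which EXPB11 was higher (adjusted p = 0.487).

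EXPB3 lies in a row of beta-expansin genes in the RefSeq gene order (assembly ASM3414082v1), after EXPB6 and EXPB2 and before EXPB4; these neighbours were taken for their place, outside the rule for named genes. EXPB6 read 9.32 and 9.36 in WT, 11.26 and 9.19 in OX, and 7.52 and 5.24 in RNAi. EXPB4, read by a probe set shared between transcripts (suffix _s_at), had 9.70 and 7.56, 11.07 and 7.85, and 6.87 and 5.23. EXPB2 read 10.57 and 11.08 in WT and 12.01 and 10.82 in OX, but 10.90 and 4.91 in RNAi, so that only 1 RNAi array was low. EXPB6 and EXPB4, like EXPB3, had both RNAi arrays below every other array, but replicate 1 of OX stood well above replicate 2 in both. The gene after EXPB4, LOC4349351, read 13.20 and 13.32 in WT, 13.12 and 13.03 in OX, and 13.67 and 13.90 in RNAi, the opposite order.

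The fits gave EXPB6, EXPB2 and EXPB4 log2 changes of -2.96 ± 0.82, -2.92 ± 1.57 and -2.58 ± 1.10 in RNAi against WT (limma adjusted p = 0.216, 0.581 and 0.453). For EXPB2 this was a 1.05-fold difference without RNAi replicate 2. Binding of these probe sets to the transcripts of neighbouring paralogues was not tested.

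GH1 beta-glucosidases other than BGLU3 and BGLU10 did not share one direction. Of 24 kept genes (of 25 on the array), 0 passed against WT in OX or in RNAi, with medians of 0.14 and 0.09. Between OX and RNAi 3 were higher in OX, 2 lower and 19 did not pass (median -0.32). BGLU33 read 7.86 and 6.84 in WT, 9.78 and 8.70 in OX, and 4.57 and 5.01 in RNAi, at least 18.9-fold higher in OX than in RNAi (limma adjusted p = 0.00388). BGLU28 was 5.55-fold higher (adjusted p = 0.00368), and BGLU7, which also hydrolyses wall oligosaccharides, 3.75-fold (adjusted p = 0.0140). These 3 calls were lost without OX replicate 1 and held in the other 5 fits that leave out 1 array.

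The 2 that were lower in OX than in RNAi were BGLU19, by 0.90 on the log2 scale (limma adjusted p = 0.0300), and BGLU36, by 1.01 (adjusted p = 0.0128); both are named outside the rule, to complete the count. Of the 6 fits that leave out 1 array, the call of BGLU19 held only without OX replicate 2, and it was also lost with only the 4 arrays compared. The call of BGLU36 was lost without OX replicate 1 or RNAi replicate 2. Other probe sets of BGLU36 had log2 changes of -0.31 and -0.42 (adjusted p = 0.545 and 0.350). Beside BGLU10 in gene order stand BGLU9, BGLU12 and BGLU13. BGLU9 read 8.59 and 8.89 in WT, 8.50 and 8.35 in OX, and 9.44 and 9.20 in RNAi, the order of Os.10324.1.S1_at and not of the other BGLU10 probe sets. BGLU12 read 9.69 and 11.01, 12.04 and 10.94, and 10.19 and 9.99, with RNAi inside the range of WT. BGLU13 read 8.69 and 8.83, 8.39 and 8.68, and 9.37 and 8.45, so RNAi overlapped with both other groups.

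**Figure D3:**
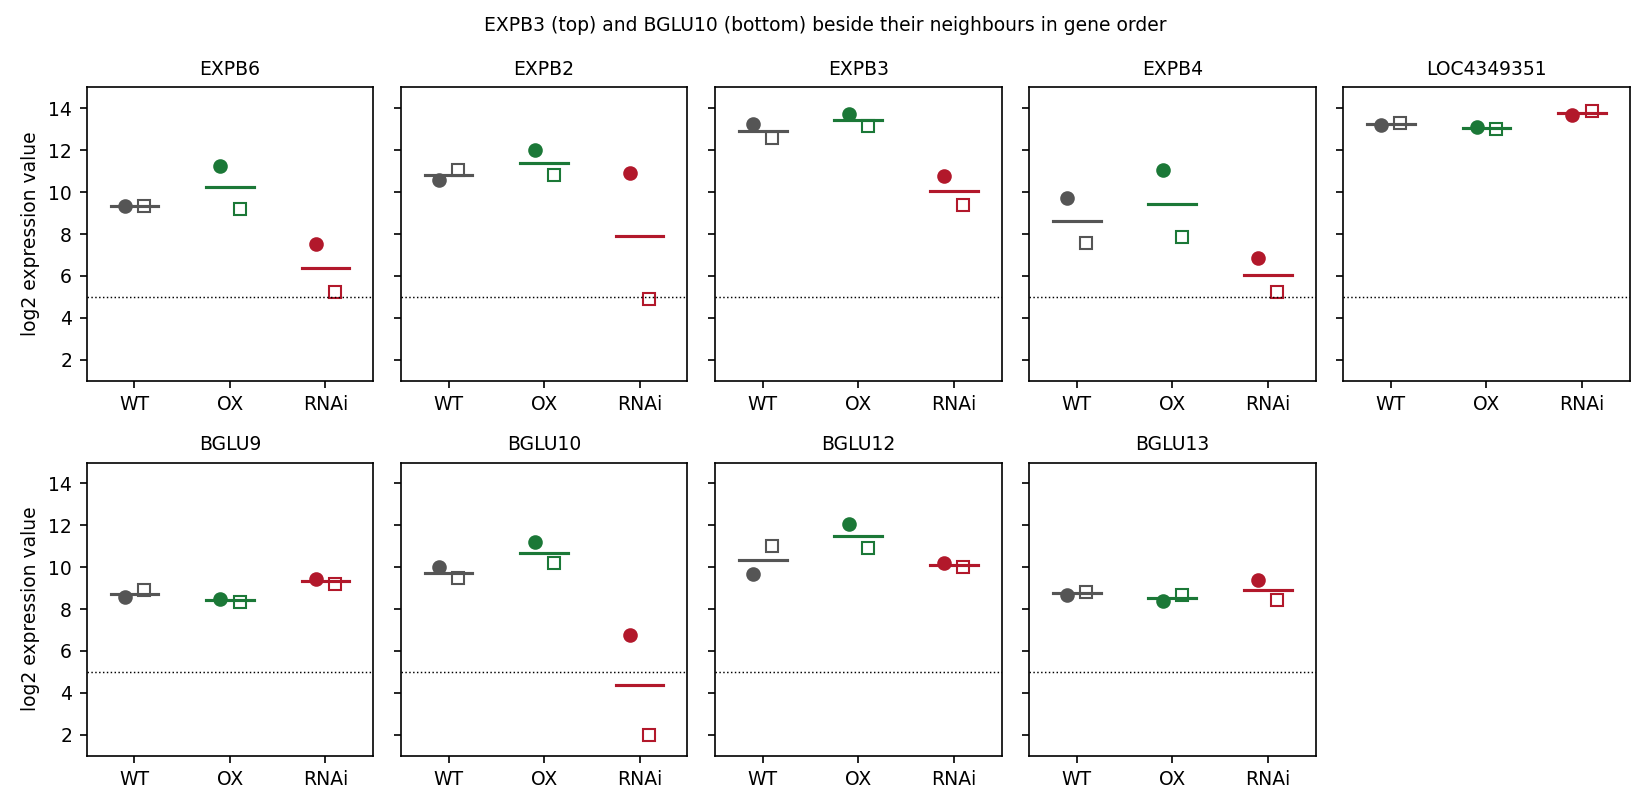
Log2 expression value (vertical axis) by group for EXPB3 with its neighbours in gene order (top) and for BGLU10, by Os.15766.1.S1_at, with neighbouring GH1 genes (bottom); circles are replicate 1, open squares replicate 2, bars means, and the dotted line log2 5. EXPB2 has RNAi arrays at 10.90 and 4.91, whereas both RNAi arrays of EXPB3 lie under its other arrays.

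Of the other mannanases, 3 were kept (MAN4, MAN6 and MAN7) and none passed in any of the 3 comparisons; the medians were -0.07 in OX against WT, -0.09 in RNAi against WT and 0.20 in OX against RNAi. MAN4 read 7.95 and 7.42 in WT, 7.64 and 7.58 in OX, and 6.69 and 6.69 in RNAi (limma adjusted p = 0.312 for RNAi against WT). MAN7 read 6.34 and 6.35 in WT, 5.44 and 6.28 in OX, and 6.52 and 6.34 in RNAi. Among 4 mannan synthases, glycosyltransferases that build the polymer MAN1 cuts, 0 passed in the main fit. Of these, CSLA1 passed in OX against RNAi under some alternatives. Among those that leave out no single array, they were median centring, replicate number in the model, and only the 4 arrays compared. In the fits that leave out 1 array, its fold between OX and RNAi ran from 4.08 without RNAi replicate 2 to 8.80 without RNAi replicate 1. CSLA1 had the largest difference, 10.24 and 8.32 in WT, 9.93 and 9.57 in OX, and 7.72 and 6.61 in RNAi (log2 change -2.12 ± 0.61 against WT, adjusted p = 0.237; 2.58 ± 0.61 in OX against RNAi, adjusted p = 0.0620).

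Other enzymes that act on wall glucans also differed. Endo-1,4-beta-glucanases of family GH9 (9 kept of 11) cut cellulose-like chains, and 2 of them fell in RNAi while 7 did not pass. GLU2 read 12.85 and 12.89 in WT, 13.81 and 13.61 in OX, and 11.09 and 10.46 in RNAi, a 4.28-fold fall against WT (limma adjusted p = 0.0105) that did not pass without WT replicate 1 or without WT replicate 2. GLU10 fell 3.49-fold (adjusted p = 0.0473), a call lost whichever array was left out. Both were higher in OX than in RNAi, 7.68-fold and 3.88-fold (adjusted p = 0.000786 and 0.0121). The call of GLU2 held in all 6 fits that leave out 1 array, and that of GLU10 was lost without OX replicate 1 or RNAi replicate 2. In OX against WT, GLU14 is named for its fitted change, but both WT arrays (0.98 and 3.97, against 5.34 and 5.0 in OX) lay under the floor. It was at least 1.13-fold higher from there (limma adjusted p = 0.573), less than the 1.79-fold of GLU2 (adjusted p = 0.278).

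The xyloglucan endotransglucosylase OsXTH8, which cuts and rejoins xyloglucan, was the only gene of its list. It read 12.04 and 11.99 in WT, 13.38 and 12.76 in OX, and 10.72 and 9.69 in RNAi, and was 7.28-fold higher in OX than in RNAi (limma adjusted p = 0.00445; 0.0728 in RNAi against WT). That call was lost without OX replicate 1. Among 4 genes that matched the list of pectin-modifying enzymes by name, 0 passed. OsPMEI8, of a family of pectin methylesterase inhibitors, read 4.19 and 5.32 in WT, 9.39 and 7.96 in OX, and 5.72 and 6.17 in RNAi. Its limma adjusted p in OX against WT was 0.0604. The list of endo-1,3-beta-glucanases matched only GLN2, by its name, and whether this gene encodes such an enzyme was not checked. GLN2 stayed between 14.64 and 15.09 on all arrays.

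**Figure D4:**
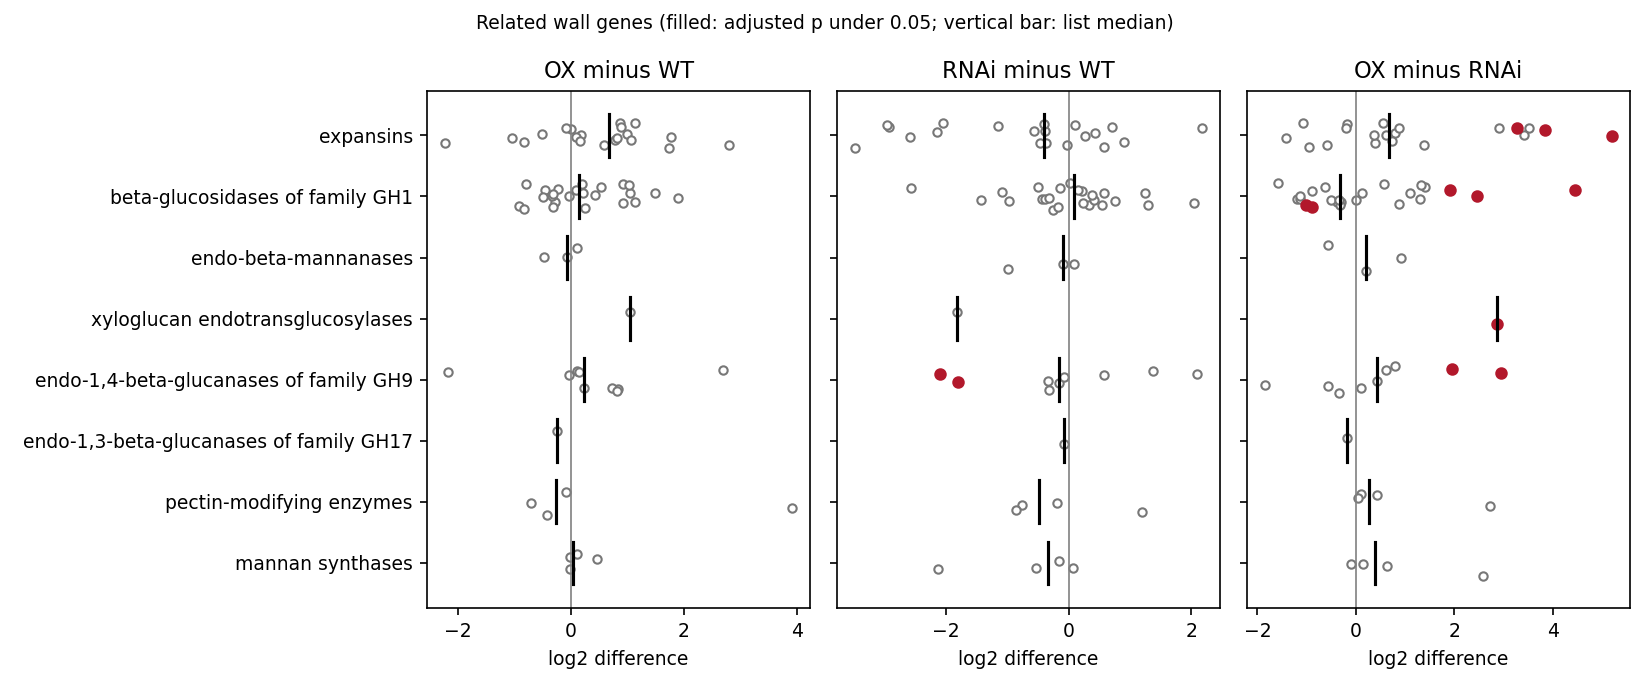
Log2 difference (horizontal axis) of 66 genes, matched by name to 8 lists of related wall genes, for the 3 comparisons. Filled points passed an adjusted p of 0.05 (limma), open points did not, and short vertical bars are list medians. Filled points number 0, 2 and 11, and in OX minus RNAi 9 of them lie to the right of 0 and 2 to the left.

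The transgenic groups also differ in their constructs. Of the reporter probe sets, 2 exceeded log2 10 on any array. One was bright in OX (13.96 and 14.41) and in RNAi (13.40 and 12.91) and dim in WT, and the other was bright in RNAi alone (13.22 and 13.64, against 3.59 and 5.09 in OX). In each comparison, of OX or RNAi with WT and of OX with RNAi, the construct and the change in OsUBA cannot be told apart.

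Among 2309 named genes with a kept probe set, the 3 whose pattern was nearest to each member were found by Euclidean distance between log2 values centred on each gene's mean over the 6 arrays. For each member the probe set with the highest mean was used. Nearest to EXPB3 were KIN5A, a kinesin motor, at a distance of 0.45 (r = 0.996), CLE202, a signalling peptide gene, at 0.58 (r = 0.991), and CYP734A6, a cytochrome P450 that inactivates brassinosteroids, at 0.70 (r = 0.988). KIN5A read 8.22 and 7.57 in WT, 8.47 and 8.18 in OX, and 5.63 and 4.73 in RNAi, which follows EXPB3 array by array.

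BGLU3 was nearest to CESA1, a cellulose synthase, at 0.78 (r = 0.990), to VLN1, an actin-binding villin, at 0.95 (r = 0.977), and to LOC4347685, named cellulase, at 0.99 (r = 0.983). CESA1 read 12.50 and 12.45 in WT, 13.75 and 13.50 in OX, and 10.01 and 9.79 in RNAi. As in BGLU3, the WT arrays lay between those of OX and RNAi, and the RNAi arrays lay close together.

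BGLU10, by Os.15766.1.S1_at, had CESA7 at 1.43 (r = 0.994), the laccase LAC4 at 2.37 (r = 0.951) and OsTHT2 at 2.39 (r = 0.953) as its nearest genes. These distances rest in part on values under the floor, which have no order: RNAi replicate 2 of BGLU10 (2.01) and of LAC4 (3.89), and both RNAi arrays of OsTHT2 (4.33 and 0.70). In CESA7, too, RNAi replicate 2 was the lowest array, at 5.33. MAN1 was nearest to CSLA1 at 0.87 (r = 0.969), to OsPHAN, a MYB-type transcription factor, at 0.89 (r = 0.967), and to the sugar transporter gene OsSWEET15 at 0.95 (r = 0.964), which lay under the floor on 4 of 6 arrays. In OsPHAN, as in MAN1, the WT replicates lay apart, at 10.08 and 8.33.

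Between the members, the distance was smallest for EXPB3 and BGLU3 (1.49, r = 0.943) and for EXPB3 and MAN1 (1.51, r = 0.918); the distances of BGLU10 to the others, 3.99 to 4.81, include its value under the floor. These correlations are over 6 arrays that share 3 groups, and with so few arrays many genes reach high values. Values under the floor also enter for VLN1 (3.78 and 3.52 in RNAi) and KIN5A (4.73 in RNAi replicate 2).

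**Figure D5:**
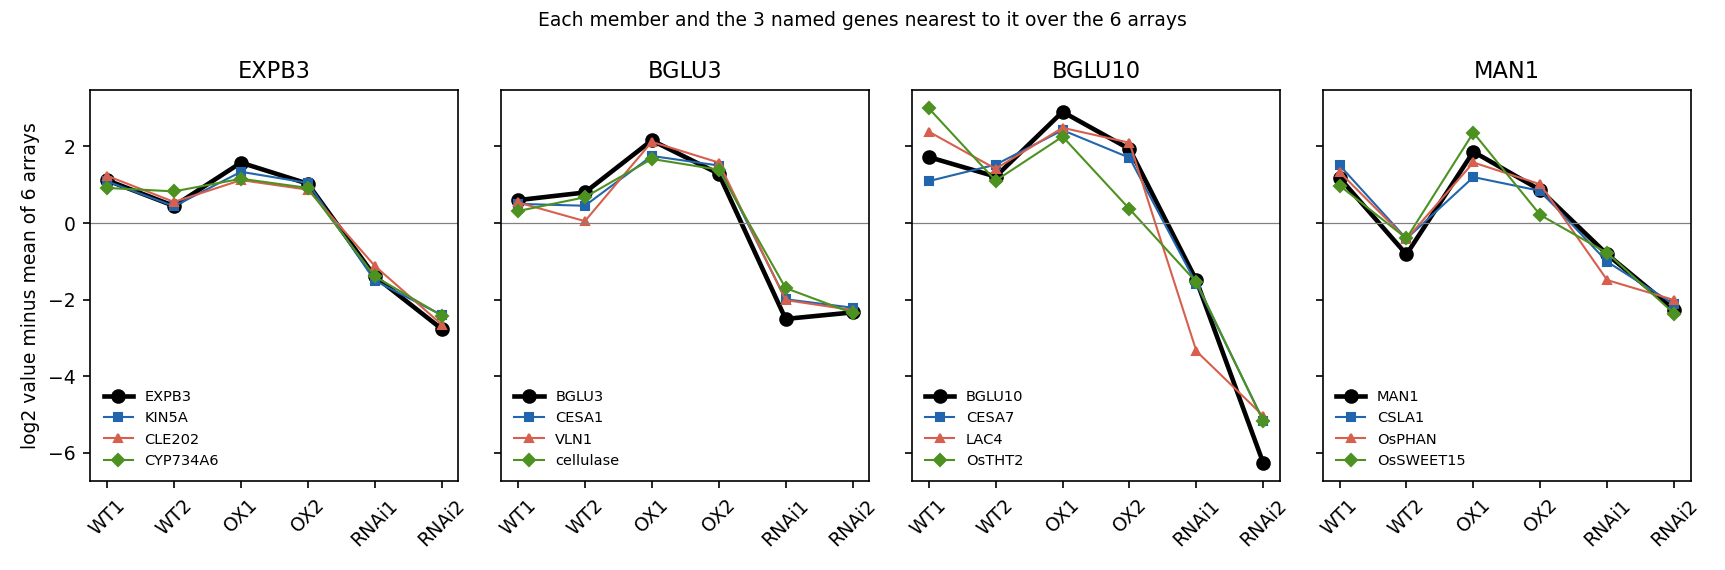
Log2 value minus the mean of the 6 arrays (vertical axis) for each member (black, thick) and the 3 genes with a name nearest to it (coloured), by array (horizontal axis). EXPB3 and KIN5A nearly coincide at a distance of 0.45, while LAC4 and OsTHT2 stay 2.37 and 2.39 from BGLU10.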

How the data were processed

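Per the labels' protocols, biotin-labelled cRNA of total RNA was hybridised to Affymetrix rice arrays; RMA (version not given in the sources used here) made the values, per the submitters' processing notes. The authors deposited log2 values for 57381 probe sets on 6 arrays, used as deposited. They hold 331 to 618 exact zeros an array, unlike usual RMA output, and how probes were summarised was not tested. Array medians ran from 5.67 to 5.92. The number of arrays limits precision; the table holds no detection calls.

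Left out were 187 control probe sets and 16728 that did not reach log2 5 on at least 2 arrays. The contrasts were fitted with limma 3.58.1 (R 4.3.3) as 1 model of 3 group means over the 6 arrays (3 residual degrees of freedom), with eBayes following brightness, and tested on simulated data. Adjusted p values are Benjamini-Hochberg values over 40466 probe sets, at a threshold of 0.05. A group mean under log2 5 was counted from that floor, array by array, and its change is given as a bound.

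Gene names came from the annotation of the array and the RefSeq gene table (17905 of 17905 identifiers found); 22436 probe sets have 1 gene, 95 several and 34663 none. Named genes were, besides the members and CESA4, CESA7 and CESA9, up to 3 called genes per list and comparison with the largest change or, with none called, the non-overlapping gene with the largest change, and the 3 genes nearest to each member. Members, lists and the choice of a brightness trend were made with earlier results of these data known. Alternatives were no trend, other filters and scalings, a replicate block, only the 4 arrays compared, and leaving out each array. No sequences were used, and genome positions served only to put genes in order along the chromosomes.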

Additional observations from a re-analysis of the deposited data

How the results depend on the processing

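The 8 member probe sets kept their direction in all 3 comparisons under all 14 alternatives, and in OX against WT none passed under any of them. Few alternatives could have changed a direction. No trend, other filters, the replicate block and only the 4 arrays compared leave the mean differences as they are. Where groups do not overlap, as in all member comparisons with RNAi, leaving out 1 array cannot reverse a difference. The members were chosen with these comparisons known, so nothing is read from their kept direction there. The counts of calls depended strongly on the settings. Without the brightness trend, the probe sets called were 0 in OX against WT, 1 in RNAi against WT and 5 in OX against RNAi, in place of 144, 313 and 1725, and the related wall genes called were 0, 0 and 0 in place of 0, 2 and 11. With only the 4 arrays compared the probe sets called were 255 and 141 in the comparisons with WT, and the related genes 1 and 1. Related genes called in RNAi against WT were also 1 without filtering, when filtering on the 6-array mean and after quantile normalisation; median centring gave 1 in OX against WT, OsPMEI8. Leaving out 1 array at a time, the probe sets called ranged from 0 to 223 in OX against WT, from 16 to 716 in RNAi against WT and from 276 to 1830 in OX against RNAi, and the related genes from 0 to 0, 0 to 6 and 2 to 14. The low ends for probe sets came without WT replicate 2 in RNAi against WT and without OX replicate 1 in the other comparisons. Without OX replicate 1, EXPB11 and GLU2 were the 2 related genes still called between OX and RNAi. Where 1 array of a group is left, it is assumed to vary like the others.

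The replicate block gave 109, 393 and 1595 probe sets and 0, 3 and 13 related genes in the same order of comparisons. Nothing states that replicate numbers mark a shared batch, and the differences between replicates 1 and 2 correlated at 0.0365, -0.0331 and -0.00984 between groups. On 5 of the 8 member probe sets the array numbered 1 lay above that numbered 2 in all 3 groups, against 12.7% of kept probe sets.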
